A study of Mus musculus with 6 samples.

Results

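The p53 family, its regulators and its best known targets were measured in mammary glands that lack p53. Trp53, Trp63, Trp73, Mdm2, Mdm4, Cdkn1a, Cdkn2a, Perp, Fas and Bbc3 were taken by name. Every non-control probe whose RefSeq accession belongs to one of these 10 genes was used, which gave 16 of the array's 39429 probes. All 6 samples came from female Trp53-/- (labelled Trp-53 knockout) mice of 8 weeks, one Cy3-labelled Agilent array per sample. The high-fat diet group (HFD, n = 3) and the control diet group (CD, n = 3) had each eaten their diet for 5 weeks, from 3 weeks of age. The comparison asked how the diet changed expression in a peri-pubertal gland. The labels name whole mammary glands as the source but mammary epithelial cells in the sample descriptions, and mice with intact p53 were not part of the comparison. The knockout allele, the strain and the make-up of the diets are not given in the sources used here.

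p53 is a transcription factor that stress stabilises. It then switches on genes that halt the cell cycle, such as Cdkn1a, or that trigger cell death, such as Bbc3 and Fas. Its relatives p63 and p73 bind similar DNA sites and remain in a Trp53 knockout animal. p63 is the master regulator of basal epithelium, including the basal and myoepithelial cells of the mammary gland, where it drives keratins and adhesion proteins. Mdm2 and Mdm4 hold p53 in check, and the p19Arf protein of the Cdkn2a locus restrains Mdm2.

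The DNA through which these proteins act can be read in the stretches from 250 bases before to 50 bases after each transcription start (RefSeq, build GRCm38.p6). Such stretches were at hand for 8 of the 10 genes, 14 in all, each 300 bases long. The upstream start of Cdkn1a (chr17:29090729-29091028, plus strand) is shown because it carries a p53 site, in capitals. The upstream start of Cdkn2a (chr4:89294570-89294869, minus strand) is shown because its probes differed most among the regulators; its capitals mark the E2F motif TTTCCCGC. Krt5 (chr15:101712856-101713155, minus strand) and Col17a1 (chr19:47691993-47692292, minus strand) are shown as epithelial genes driven by p63, with a p53-type half-site in capitals.
Cdkn1a: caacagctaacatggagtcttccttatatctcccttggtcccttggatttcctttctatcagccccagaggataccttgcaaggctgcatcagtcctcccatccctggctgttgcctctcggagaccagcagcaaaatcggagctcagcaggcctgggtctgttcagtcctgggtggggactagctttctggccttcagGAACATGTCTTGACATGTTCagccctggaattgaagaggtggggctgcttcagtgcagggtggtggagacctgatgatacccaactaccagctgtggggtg
Cdkn2a: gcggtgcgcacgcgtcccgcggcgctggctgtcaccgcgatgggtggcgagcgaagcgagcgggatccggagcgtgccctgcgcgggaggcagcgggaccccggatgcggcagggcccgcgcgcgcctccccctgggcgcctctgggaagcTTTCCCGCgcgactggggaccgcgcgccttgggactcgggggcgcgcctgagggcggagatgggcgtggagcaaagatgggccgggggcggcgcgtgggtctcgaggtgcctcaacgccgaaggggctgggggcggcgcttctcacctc
Krt5: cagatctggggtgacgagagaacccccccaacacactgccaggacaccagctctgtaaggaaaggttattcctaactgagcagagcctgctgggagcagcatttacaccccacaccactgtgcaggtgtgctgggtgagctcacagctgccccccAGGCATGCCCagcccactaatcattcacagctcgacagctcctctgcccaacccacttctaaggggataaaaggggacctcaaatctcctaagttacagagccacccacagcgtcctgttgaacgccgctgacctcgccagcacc
Col17a1: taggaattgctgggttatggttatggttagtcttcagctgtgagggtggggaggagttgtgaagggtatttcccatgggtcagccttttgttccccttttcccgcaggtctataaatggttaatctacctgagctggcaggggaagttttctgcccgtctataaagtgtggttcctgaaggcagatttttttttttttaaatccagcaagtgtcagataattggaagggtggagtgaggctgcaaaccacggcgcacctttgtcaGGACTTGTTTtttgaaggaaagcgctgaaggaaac

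The Cdkn1a match spans 20 bases, from 51 to 32 bases before the start. It is a pair of adjacent p53 consensus half-sites with at most 1 mismatch. Of all 32851 promoter stretches, 0.0883% hold such a pair, among them 1 of the 14 member stretches. This definition was set after the Cdkn1a sequence had been read. An earlier one, of 2 exact half-sites with 0 to 13 bases between them, was met in 0.0731% of all stretches and, among the members, by Cdkn1a through a wider span. A single half-site of 10 bases, which reads the same on both strands as a pattern, occurs in 8.36% of all stretches. It was found in 3 of the 14 member stretches (Cdkn1a, Mdm2 and Trp53) and in 3 of 22 stretches of p63-linked epithelial genes (Krt5, Col17a1 and Dsp). Stretches of other p53 stress targets held it in 11 of 41 cases and those of regulators in 4 of 29. The full pair was found in 2 of the 41 stress target stretches (Ccng1 and Gtse1) and in none of the p63-linked or regulator stretches. TTTCCCGC, read on either strand, occurs in 1.07% of all stretches and, among the members, in the Cdkn2a stretch printed above. In all, 9 motifs were searched, and the motifs and stretches shown were picked after the sequences were seen. These are matches of letters and say nothing about binding in these glands.

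Levels below are log2 of the processed signal over the array's 75th percentile, so 0 is the level of the 75th percentile. Differences are HFD minus CD, from limma fitted on all 28689 probes detected well above background on 3 or more of the 6 arrays, with a 95% confidence interval (CI). Of the 16 member probes, 15 entered the fit, and 13 were well above background on every array. No member probe passed an adjusted p of 0.05 in limma (0 of 15, against 0.0174% of all probes tested, all of those lower). At an unadjusted p under 0.05, 3 member probes were higher (6.77% of all probes) and 3 lower (6.99% of all probes). The diets did not overlap in 5 probes with higher values (9.25% of all probes) and in 2 with lower values (8.22% of all probes; 17.5% in either direction). One of the higher probes, of Trp73, entered the fit only through its HFD arrays, so it had to differ. When arrays were weighted by how well they fitted, 7 member probes of 6 genes passed, but so did 23.9% of all probes. The p-values set each difference against the spread between arrays of the same diet, moderated over all probes. Within a diet both mice and slides differ, so that spread is not of mice alone. The number of arrays limits the precision.

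**Figure D1:**
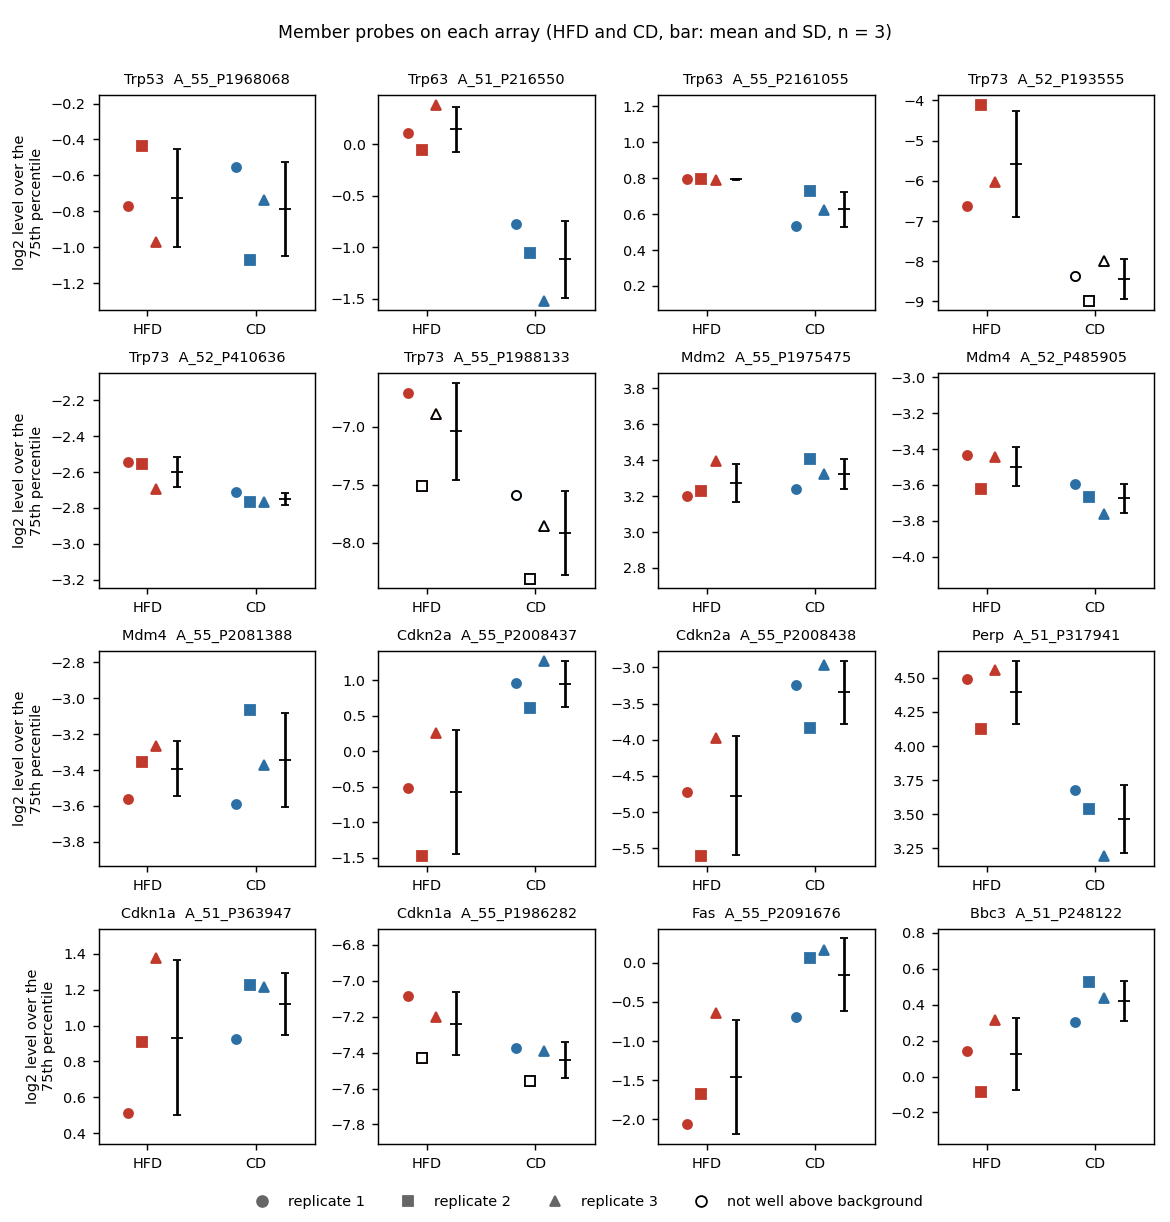
Each panel plots 1 member probe: log2 level over the array's 75th percentile for the 3 HFD arrays (red, left) and the 3 CD arrays (blue, right), with the mean and SD beside each group and open symbols for arrays not well above background. Trp63 (A_51_P216550) and Perp sit higher on every HFD array, both Cdkn2a probes lower, and Trp53, Mdm2 and Cdkn1a overlap.

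Epithelial keratins were abundant on the arrays, and of 6 adipocyte markers all but Fabp4 were dim. Krt18, a luminal keratin, had levels of 7.59 to 8.45 on HFD and 7.35 to 7.94 on CD arrays. The adipocyte hormone gene Adipoq had levels of -6.21 to -5.74 on HFD arrays and -7.33 to -6.65 on CD arrays. Fabp4, a fatty acid carrier also made by other cells, had levels of 0.39 to 2.55 on HFD arrays and 0.77 to 1.71 on CD arrays. The lowest level well above background was -7.87 to -6.83, depending on the array. Cd3d, Cd3g and Cd8a of T cells, Ms4a1 of B cells and Cd163 of macrophages were well above background on no array. The 75th percentile lay between 1326 and 1973 intensity units, and between 27203 and 29412 probes were well above background on each array. Arrays were on 3 slides, 1 of which held both diets (HFD replicates 2 and 3 with CD replicate 1). On the first principal component HFD replicate 3 (7.65) lay apart from the other HFD arrays (-62.19 and -54.65) and next to CD replicate 1 (0.40), which lay apart from the other CD arrays (53.69 and 55.10).

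Trp53 itself gave the same signal under both diets within the spread between arrays of the same diet. The Trp53 probe (A_55_P1968068, NM_011640) had levels of -0.77, -0.43 and -0.97 on HFD arrays, against -0.55, -1.07 and -0.73 on CD arrays, and it was well above background on all 6. The diets overlapped, with HFD replicate 2 the highest and CD replicate 2 the lowest of the 6 arrays. The difference was 0.062 (SE 0.20, CI -0.43 to 0.55, adjusted p = 0.896 in limma). Where in the gene this probe lies, and whether that part is deleted, is not given in the files used here, so the signal checks nothing about the knockout.

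Trp63 had higher values after the high-fat diet on both of its probes, on 1 of them by a small margin. On A_51_P216550 (NM_011641) the levels were 0.11, -0.054 and 0.38 on HFD arrays, against -0.78, -1.06 and -1.52 on CD arrays. Every HFD array lay above every CD array. The difference was 1.26 (SE 0.22, CI 0.72 to 1.80), or 2.40-fold, with an adjusted p of 0.176 in limma, so it did not pass. It was 0.94 within the slide that held both diets.

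The other Trp63 probe, A_55_P2161055 (NM_001127261), answers to a different transcript record of the gene. Its levels were 0.79, 0.80 and 0.79 on HFD arrays, against 0.53, 0.73 and 0.62 on CD arrays. The diets were apart there too, but by 0.17 (SE 0.11, CI -0.11 to 0.44, adjusted p = 0.506 in limma). The log2 gap between both probes was -0.65 ± 0.22 on HFD and -1.75 ± 0.42 on CD arrays (SD, n = 3 each). The gap was narrower on every HFD array, and an exact two-sided permutation test gave p = 0.1, the smallest that 3 mice against 3 allow, and 0.3 after adjustment over the 3 pairs whose probes were both well above background on every array. Over all 7 pairs of probes of a member, 4 of which hold a dim probe, the adjusted value was 0.233. It was lower there because Trp73 pairs with A_52_P193555 also gave 0.1 in that test. That probe was well above background on HFD arrays only, so the lower value adds no support. The Trp63 gene starts from alternative promoters that yield a full-length TA form and a shorter ΔN form. Which of them each probe reads is not given in the files used here.

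Trp73, the third family member, was dim. Its brightest probe, A_52_P410636 (NM_011642), had levels of -2.54, -2.56 and -2.70 on HFD arrays, against -2.71, -2.77 and -2.77 on CD arrays. These groups were apart by a small margin, with a difference of 0.15 (SE 0.11, CI -0.12 to 0.42, adjusted p = 0.539 in limma). On A_52_P193555 the levels were -6.62, -4.11 and -6.03 on HFD arrays, against -8.36, -8.98 and -7.98 on CD arrays.

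That second Trp73 probe was well above background on all HFD arrays and on no CD array. Its means were -5.59 on HFD and -8.44 on CD arrays. Because it entered the fit only through its HFD arrays, its adjusted p of 0.234 in limma is no test of the diet. With each CD array set to its lowest detected signal, the probe was 3.98-fold higher under HFD. Where the probe's own CD signal was above that, it was used instead. This is not a lower limit, because the differences after normexp background correction were smaller and the probe was kept through its HFD arrays. The probe's value rested largely on HFD replicate 2, without which it was 2.39-fold. After normexp background correction its log2 difference was 1.12 when scaled to the 75th percentile, with all genes then at a median of 0.21, and 0.55 with quantile scaling, with all genes at -0.0016. The last Trp73 probe, A_55_P1988133, was well above background on 1 HFD array and no CD array and was not tested. The 3 Trp73 probes carry the same accession and did not show the same size of difference.

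Of the regulators, Mdm2, the ubiquitin ligase that degrades p53, was abundant and level. The Mdm2 probe (A_55_P1975475, NM_010786) had levels of 3.20, 3.23 and 3.40 on HFD arrays, against 3.24, 3.40 and 3.32 on CD arrays. The groups overlapped, with a difference of -0.048 (SE 0.12, CI -0.34 to 0.24, adjusted p = 0.858 in limma). Its relative Mdm4, which blocks the activation domain of p53, was read by 2 probes with the same accession (NM_008575). A_52_P485905 ranged from -3.62 to -3.43 on HFD and from -3.76 to -3.60 on CD arrays, and A_55_P2081388 from -3.56 to -3.26 and from -3.59 to -3.07. Both overlapped between the diets, with differences of 0.18 (CI -0.12 to 0.47) and -0.050 (CI -0.47 to 0.37).

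Cdkn2a had lower values after the high-fat diet on both of its probes. The locus encodes the cell cycle inhibitor p16Ink4a and, from the upstream start printed above, p19Arf, and both probes carry the accession NM_009877. On A_55_P2008437 the levels were -0.52, -1.48 and 0.26 on HFD arrays, against 0.97, 0.62 and 1.27 on CD arrays. Every HFD array lay below every CD array, HFD replicate 2 the furthest. The means were -0.58 ± 0.87 on HFD and 0.95 ± 0.33 on CD arrays (SD, n = 3 each). The difference was -1.53 (SE 0.44, CI -2.59 to -0.47), with an adjusted p of 0.292 in limma.

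The dimmer Cdkn2a probe, A_55_P2008438, ran alongside. It had levels of -4.72, -5.61 and -3.98 on HFD arrays, against -3.24, -3.83 and -2.97 on CD arrays, again with no overlap. Its difference was -1.43 (SE 0.44, adjusted p = 0.310 in limma). After normexp background correction it was -0.50 when scaled to the 75th percentile, with all genes then at a median of 0.21. With quantile scaling it was -0.75, with all genes at -0.0016. The brighter probe gave -1.47 and -1.42 under these settings. The log2 gap between both probes was 4.19 ± 0.057 on HFD and 4.30 ± 0.13 on CD arrays (SD, n = 3 each), so both probes moved nearly as one. Within the shared slide the differences were -1.58 (A_55_P2008437) and -1.56 (A_55_P2008438). Neither call passed over all probes.

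Perp, a membrane protein of desmosomes, is a p53 target in dying cells and a p63 target in stratified epithelium, where it holds neighbouring cells together. The Perp probe (A_51_P317941, NM_022032) had levels of 4.49, 4.13 and 4.56 on HFD arrays, against 3.68, 3.54 and 3.19 on CD arrays. All 3 HFD arrays lay above all 3 CD arrays. The means were 4.39 ± 0.23 on HFD and 3.47 ± 0.25 on CD arrays (SD, n = 3 each). The difference was 0.92 (SE 0.19, CI 0.47 to 1.38), or 1.90-fold, with an adjusted p of 0.211 in limma. Within the shared slide it was 0.67.

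The stress targets did not follow Perp. Cdkn1a, the p21 inhibitor of cyclin-dependent kinases, was read by 10 spots of A_51_P363947 (NM_007669), with levels of 0.52, 0.91 and 1.38 on HFD arrays, against 0.92, 1.23 and 1.21 on CD arrays. HFD replicate 3 was the highest of all arrays and HFD replicate 1 the lowest, so the diets overlapped. The difference was -0.19 (SE 0.24, CI -0.76 to 0.38, adjusted p = 0.710 in limma), and 0.22 within the shared slide. A second Cdkn1a probe, A_55_P1986282 (NM_001111099), was dim, well above background on 2 arrays of each diet, with a difference of 0.20 (CI -0.13 to 0.54).

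Bbc3, which encodes the cell death protein PUMA, had levels of 0.14, -0.085 and 0.32 on HFD arrays, against 0.30, 0.52 and 0.44 on CD arrays (A_51_P248122, NM_133234). HFD replicate 3 lay just above the lowest CD array, and the other HFD arrays lay below all CD arrays. The difference was -0.30 (SE 0.15, CI -0.66 to 0.060, adjusted p = 0.399 in limma), and -0.19 both without HFD replicate 2 and within the shared slide.

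Fas, the death receptor on the cell surface, had lower values on 2 of 3 HFD arrays. The Fas probe (A_55_P2091676, NM_007987) had levels of -2.06, -1.67 and -0.64 on HFD arrays, against -0.69, 0.059 and 0.17 on CD arrays. HFD replicate 3 stood next to CD replicate 1, and the remaining arrays parted by diet. The difference was -1.31 (SE 0.41, CI -2.29 to -0.32), with an adjusted p of 0.313 in limma. It was -1.71 without HFD replicate 3 and -0.47 within the shared slide, which leaves out HFD replicate 1 and CD replicates 2 and 3.

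**Figure D2:**
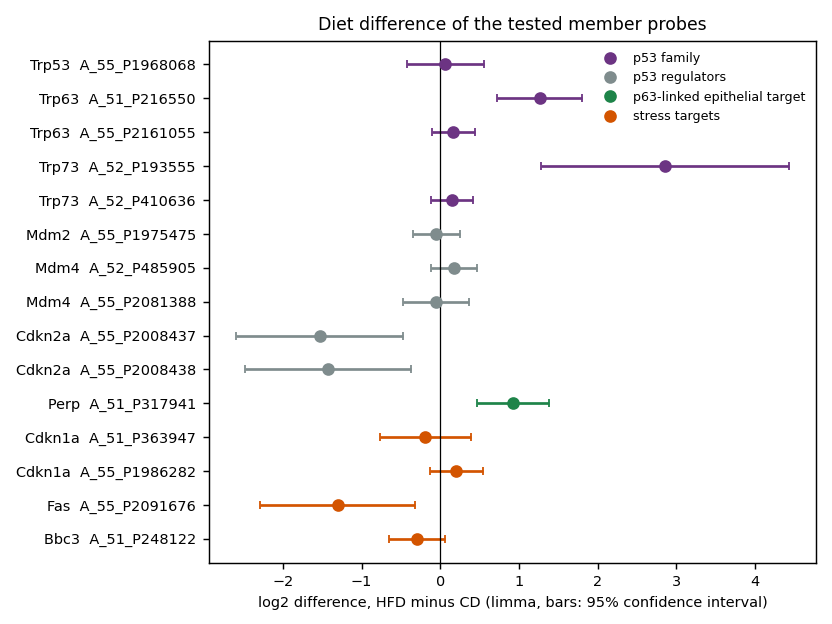
Log2 difference of each tested member probe (HFD minus CD, x axis) with its 95% confidence interval from limma, coloured by role. Intervals lie wholly above 0 for Trp63 (A_51_P216550), Trp73 (A_52_P193555) and Perp and wholly below 0 for both Cdkn2a probes and Fas. None of these passed after adjustment over all probes, and this Trp73 probe entered the fit only through its HFD arrays.

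Other genes of the p63 and p53 branches were taken from 3 lists that leave out the members, with 1 probe a gene. The lists were drawn up with earlier results of these data known. Their counts beside the shares of all genes are therefore a description and not independent support. Genes linked to p63 in epithelium had mostly higher values under HFD. Of 32 listed genes, 32 were tested, 29 had a positive difference (49% of all genes did), and the median was 0.72, where the median of all 23460 genes or transcripts was -0.0083. None passed the adjusted test in limma (0.0171% of all genes did). At an unadjusted p under 0.05, 16 were higher and 0 lower (5.91% and 7.49% of all genes). The diets did not overlap in 15, all higher (8.47% of all genes were apart with higher and 8.75% with lower values). The list's median level was 0.86, 0.81 and 0.83 on HFD arrays, against 0.45, 0.33 and 0.16 on CD arrays. On the slide with both diets the list's median difference was 0.46.

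Leading that list by p was Krt5, the basal keratin, with levels of 6.11, 5.91 and 6.16 on HFD arrays, against 4.71, 5.07 and 4.60 on CD arrays. The Krt5 difference was 1.27 (SE 0.16, adjusted p = 0.114 in limma). Dsg3, a desmosomal cadherin, differed by 1.77 (SE 0.29, adjusted p = 0.139), Itgb4, the hemidesmosome integrin, by 0.96 (SE 0.18, adjusted p = 0.198) and Sfn, the epithelial 14-3-3 protein, by 1.09 (SE 0.21, adjusted p = 0.201). In each of these 4 genes every HFD array lay above every CD array.

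The p53 stress targets other than the members stayed close to the median of all genes. Of 36 listed, 35 were tested, 22 had a positive and 13 a negative difference, and the median was 0.10. None passed the adjusted test in limma, and 2 were higher and 0 lower at an unadjusted p under 0.05 (5.91% and 7.49% of all genes). The diets did not overlap in 4, all higher (8.47% of all genes). The 2 were Plk2, a stress-induced kinase (0.73, SE 0.23, adjusted p = 0.313), and Ei24, an endoplasmic reticulum protein (0.65, SE 0.24, adjusted p = 0.348). Polk, a DNA polymerase that bypasses lesions, differed by 0.47 (SE 0.20) and Dcxr, a carbonyl reductase, by -0.47 (SE 0.21).

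The list of p53 network regulators, mostly but not only enzymes and partners acting on p53 family proteins, had a median of 0.073 over 30 genes. It held 22 positive differences (49% of all genes) and 0 past the adjusted test in limma. At an unadjusted p under 0.05, 2 were higher and 1 lower (5.91% and 7.49% of all genes). The diets did not overlap in 5 with higher values and 1 with lower values (8.47% and 8.75% of all genes). Ppp1r13l encodes iASPP, an inhibitor of p53 that is itself expressed in basal epithelium. It had levels of 2.14, 2.13 and 2.23 on HFD arrays, against 1.42, 1.82 and 1.69 on CD arrays, a difference of 0.53 (SE 0.14, adjusted p = 0.273). Wwp1, a ubiquitin ligase with p63 among its substrates, differed by 0.59 (SE 0.18, adjusted p = 0.304), and the checkpoint kinase Chek2 by 0.44 (SE 0.18, adjusted p = 0.363). Cdkn2b, the p15Ink4b gene that neighbours Cdkn2a, had levels of 1.40, 0.87 and 1.95 on HFD arrays, against 1.96, 2.14 and 2.39 on CD arrays, a difference of -0.75 (SE 0.29, adjusted p = 0.350). As with Cdkn2a, its lowest value was on HFD replicate 2, and its diets did not overlap.

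**Figure D3:**
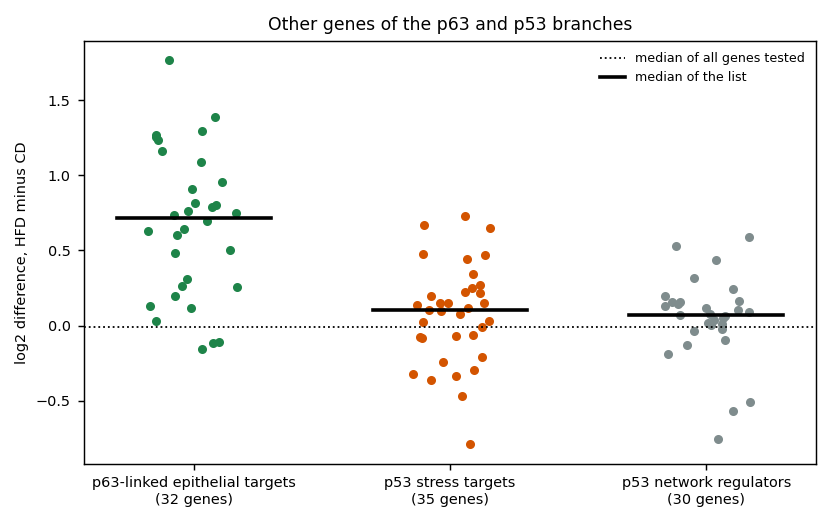
Log2 difference (HFD minus CD, y axis) of each tested gene in the 3 lists, 1 point a gene, with the list's median as a bar and the median of all genes tested as a dotted line. The median was 0.72 for p63-linked epithelial genes, 0.10 for p53 stress targets and 0.073 for network regulators.

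Cell type markers moved with several of these genes. In RNA from whole samples, fewer cells of a type and less RNA per cell cannot be told apart. Of 7 basal and myoepithelial markers, 7 were higher under HFD on average and all were well above background. Their summed level was 227, 196 and 241 times the 75th percentile on HFD arrays, against 99.1, 159 and 114 on CD arrays. That sum follows its brightest probes, Acta2 and Tagln, and the dimmer Oxtr and Mylk overlapped between the diets. Like the sum, Trp63 (A_51_P216550), Perp and 15 of the 32 p63-linked genes had every HFD array above every CD array. No gene stands in both lists, but Krt5 and Krt14 of the p63-linked list are themselves products of basal cells. Of 12 luminal markers, 11 were higher on average, but their sum of 395, 479 and 247 on HFD arrays overlapped with 232, 310 and 207 on CD arrays. Of 8 keratinocyte markers on the array, 5 were higher on average, with sums of 3.95 to 5.39 on HFD and 2.45 to 4.66 on CD arrays. Of these, 5 were well above background on every array. Krtdap, a secreted keratinocyte protein, had levels of -1.08, -1.29 and -0.43 on HFD arrays, against -2.96, -2.82 and -3.64 on CD arrays, a difference of 2.21. Dmkn, another such protein, had levels of 0.12, 0.75 and 0.85 on HFD arrays, against -0.75, -0.60 and -1.31 on CD arrays, a difference of 1.46. In both, every HFD array lay above every CD array, by more on average than for Trp63 or Perp. Lor (difference -0.63), Ivl (-0.56) and Krt10 (-0.055) were lower on average under HFD and overlapped between the diets, as did Sbsn (0.067). Krt15 was dim and higher on every HFD array (0.65), and Krt1 was well above background on 1 array. The part of basal cell or skin content in the Trp63, Perp and p63-linked differences was not tested.

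Fas and Cdkn2a had low values on the arrays where fibroblast and interferon-induced genes were low. All 6 fibroblast markers were lower on average under HFD, with summed levels of 171, 178 and 438 on HFD arrays, against 389, 569 and 651 on CD arrays. All 8 interferon-induced genes were lower on average too, with sums of 82.5, 51.9 and 167 on HFD arrays, against 155, 219 and 220 on CD arrays. In both sums HFD replicate 3 exceeded CD replicate 1, as it did for Fas but not for Cdkn2a. Gene by gene it did so in 3 of 6 fibroblast and 4 of 8 interferon-induced genes, so the sums follow their brightest probes. Fas is itself known to be induced by interferon. Of 8 T and NK cell markers, 3 were well above background on all arrays, and their sums were 4.47 to 4.92 on HFD and 4.11 to 5.03 on CD arrays. The part of these lists in the Fas and Cdkn2a differences was not tested.

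**Figure D4:**
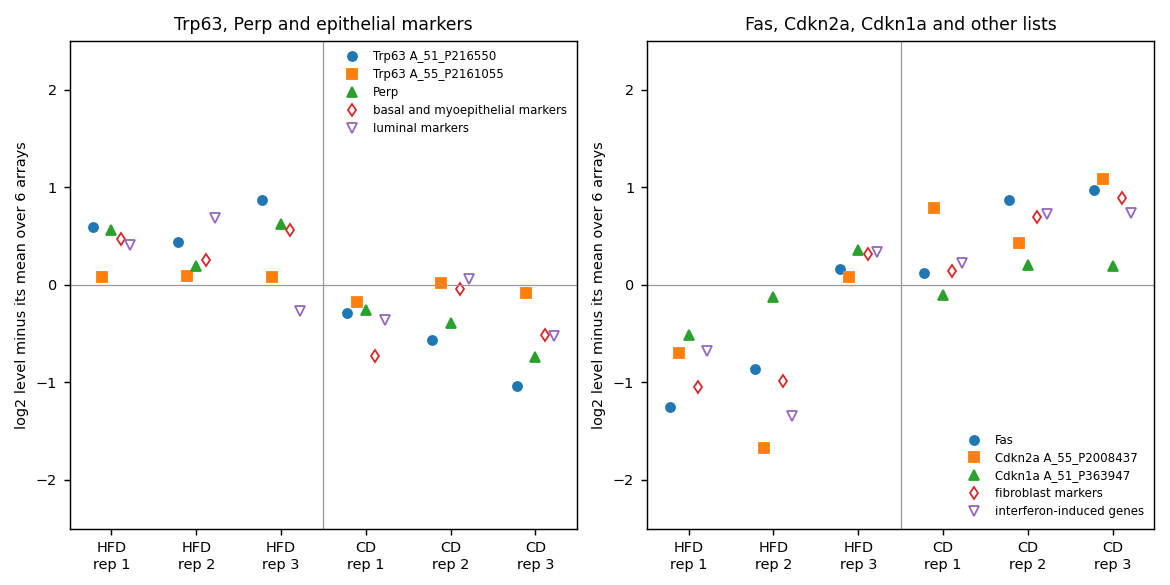
Log2 level of members and log2 summed level of marker lists on each array, less its mean over the 6 arrays (y axis), with HFD arrays left and CD arrays right of the line. On the left, Trp63 (A_51_P216550), Perp and the basal markers are above 0 on all HFD arrays and below 0 on all CD arrays; on the right, Fas, Cdkn2a, fibroblast and interferon-induced genes are lowest on HFD replicates 1 and 2.

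Among all 28689 probes, the genes whose profile over the 6 arrays lay nearest to that of the leading member of each role were found by the root mean square gap between centred log2 levels. For Trp63 (A_51_P216550) they were Col17a1 (gap 0.082), Bcl11b (0.094) and Slc16a5 (0.11). Col17a1, whose upstream sequence is printed above, encodes a hemidesmosome collagen and had a difference of 1.26 (SE 0.26). For Perp they were Schip1 (0.078), Kif5c (0.089) and Chst2 (0.090). For Cdkn2a (A_55_P2008437) the nearest were Dipk1c (0.12), Lrrtm2 (0.13) and Frmd5 (0.19), and for Fas Pcolce (0.080), Gstm2 (0.083) and Il11ra1 (0.085). With 6 arrays and so many probes, close profiles are a description only.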

How the data were processed

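Per the file headers, arrays were read with the scanner software Agilent Feature Extraction, version 11.0.1.1. The authors deposited its output, linear intensity per spot: the processed signal, already background-subtracted and detrended, beside the median of the spot and of its surroundings. A value table from the authors holds intensity divided by a constant per array, close to the 75th percentile.

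Control spots and outlier spots were left out, repeat spots were averaged, and 111 of 39429 probes that lacked a good spot on some array were dropped. Probes were named through RefSeq accessions (27346 of 39318 gave 1 symbol). Log2 processed signal was taken over each array's 75th percentile. Each probe was tested between diets in R 4.3.3 by limma 3.58.1 (lmFit, then eBayes; two-sided; no covariates; Benjamini-Hochberg over all 28689 probes well above background on at least 3 arrays). List counts use the probe with the highest mean per gene. Normexp (offset 50) used the median spot and background signals. The fit was tested on simulated data. No 2 arrays held identical values.

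The members and lists were chosen with earlier results of these data known, and the probe-pair tests and motif searches were added after values and sequences were seen. Of 9 motifs searched, the p53 full site was redefined once after the Cdkn1a stretch had been read, and the TATA box, NF-kB, SP1, AP-1 and interferon response motifs were searched but are not reported. Named genes were all members, in each list the 4 smallest p where none passed, and the 3 nearest profiles to the leading member of each role. Alternatives covered scaling, background, filter, probe rule, slide and replicate blocks, variance settings, array weights, the deposited table and leaving out each array.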

Additional observations from a re-analysis of the deposited data

How the results depend on the processing

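Of 297 values of member probes under alternatives, 280 kept the sign of the reported difference. The 17 reversed values came from Trp53 (0.062), Mdm2 (-0.048), Mdm4 (A_55_P2081388, -0.050) and Cdkn1a (A_51_P363947, -0.19). Differences of similar size kept their sign for Trp63 (A_55_P2161055, 0.17), Trp73 (A_52_P410636, 0.15) and Mdm4 (A_52_P485905, 0.18). The cause was not tested. Within the shared slide, which gives the same value as slide as a fixed block, Trp53 was -0.15, Mdm2 0.071, Mdm4 (A_55_P2081388) 0.28 and Cdkn1a (A_51_P363947) 0.22. With the mean over the probes of a gene, Mdm4 was 0.063 and Cdkn1a 0.0071, and Mdm4 (A_55_P2081388) was 0.26 with normexp and the 75th percentile and 0.0019 with normexp and quantile scaling. Over the fits that left out 1 array, Trp53 ranged from -0.084 (without HFD replicate 2) to 0.19, and was -0.081 without CD replicate 2. Mdm4 (A_55_P2081388) ranged from -0.17 to 0.087 (without CD replicate 2), and was 0.034 without HFD replicate 1. Cdkn1a (A_51_P363947) ranged from -0.41 to 0.021 (without HFD replicate 1).

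Member probes passed an adjusted p of 0.05 in limma under array weights and under no other alternative. There 3597 probes were called higher and 3250 lower. The adjusted p in limma was 0.026 for Trp63, 0.030 for Trp73, 0.027 and 0.028 for Cdkn2a, 0.027 for Perp, 0.027 for Fas and 0.049 for Bbc3. The Trp73 probe (A_52_P193555) entered the fit only through its HFD arrays, so its value is no test of the diet. Over all probes, 0 higher and 5 lower were called as reported, with 1942 and 2006 at an unadjusted p under 0.05. Leaving out 1 array gave 0 to 15 higher and 0 to 107 lower calls, both highest without HFD replicate 3. Lower calls numbered 8 with normexp and quantile scaling, 8 among probes well above background on all arrays and 3 with the mean of probes. They numbered 0 with normexp and the 75th percentile (698 unadjusted), no filter (1956), the slide block (751), the shared slide (607) and the deposited table (1893). The p63-linked median was 0.46 with the slide block and within the shared slide, and 0.56 to 0.84 without single arrays. The median of all genes, -0.0083 as reported, was 0.015 with median scaling, 0.21 with normexp and the 75th percentile, 0.045 with no filter and 0.032 with the slide block and within the shared slide. Without single arrays it ranged from -0.044 to 0.019.

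Replicate numbers were shared by the diets, but the labels do not say that they mark pairs. Same-numbered mice deviated together weakly or not at all (correlations of 0.338, -0.139 and 0.253), so the numbers were not taken as pairs. With the replicate block 0 probes were called higher (2586 unadjusted) and 0 lower (2595 unadjusted), and no member call changed. The SE fell from 0.44 to 0.24 (A_55_P2008437) and 0.19 (A_55_P2008438) for Cdkn2a and from 0.41 to 0.22 for Fas. It rose from 0.22 to 0.24 for Trp63 (A_51_P216550) and from 0.19 to 0.20 for Perp. Depth limits the dim probes most: Trp73 (A_52_P193555 and A_55_P1988133) and Cdkn1a (A_55_P1986282) lie near background.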

Other observations

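Within the p63-linked list, genes chosen here after their values were seen fall into several structural groups. Krt14, the partner of Krt5 in basal keratin filaments, had levels of 5.06, 4.69 and 4.30 on HFD arrays, against 3.18, 4.09 and 3.08 on CD arrays (difference 1.23, SE 0.32). Of desmosome genes, Dsp, which ties the junction to keratin, differed by 0.64 (SE 0.19), Pkp1 by 0.82 (SE 0.27) and Dsc3 by 1.30 (SE 0.46). The Notch ligands Jag1 and Jag2 differed by 1.38 (SE 0.34) and 0.76 (SE 0.16). Fermt1, an integrin activator, differed by 1.16 (SE 0.28) and Bnc1, a basal cell transcription factor, by 0.91 (SE 0.21). In each of these 8 genes all 3 HFD arrays lay above all 3 CD arrays, and none passed the adjusted test in limma (adjusted p from 0.212 to 0.339).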
